A study of Mus musculus with 4 samples.

Results

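Genes of retinol uptake, storage and conversion to retinoic acid were followed through laser-captured Paneth cells of germ-free and colonized mice. The set held 9 genes, named from the platform annotation by 10 probe sets: Rbp2, Lrat, Adh1, Rdh7, Dhrs3, Aldh1a1, Aldh1a2, Crabp2 and Rarb, out of 18193 genes that the annotation names alone. Every probe set naming a member was taken, and where a gene had more than 1, the probe set with the highest mean over the 4 arrays stands for it. The members were chosen by their signals in the conventionalized against the germ-free arrays as well as by their known roles, so their values are a description and no p-value is given for them. Paneth cells sit at the bottom of the crypts of the small intestine and secrete antimicrobial granules. The germ-free group was a pool of RNA from 3 male NMRI mice aged 8 weeks that never met microbes. The conventionalized group was a pool from 3 male NMRI mice of the same age, germ-free until an intestinal flora taken from a normally raised mouse was introduced for 10 days. From each pool, 2 aliquots of 10 ng were amplified and hybridized to 1 Affymetrix Mouse430_2 array each. The 2 arrays of a group are thus repeat amplifications of 1 pool, the spread between mice is not in these data, and every standard error below covers amplification and array error only.

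Retinol and its esters come from the diet as vitamin A. In absorptive enterocytes, cellular retinol-binding protein 2 (Rbp2) takes up retinol, and lecithin retinol acyltransferase (Lrat) turns it into retinyl esters for storage and export. Alternatively, alcohol dehydrogenases such as Adh1 and retinol dehydrogenases such as Rdh7 oxidize retinol to retinal, which Dhrs3 can reduce back. Retinal dehydrogenases (Aldh1a1, Aldh1a2) then make retinoic acid in a step that is not reversed. Crabp2 carries retinoic acid to its nuclear receptors, Rarb among them, and Rarb is itself switched on by retinoic acid. In the gut, retinoic acid made by the epithelium and by dendritic cells is known for its part in immune cell homing and IgA responses.

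Signals are the authors' linear intensities. Differences are conventionalized minus germ-free on the log2(intensity + 32) scale, with the standard error (SE) of a limma fit across 22491 probe sets above a mean signal of 113.9. A gene is called at an adjusted p under 0.05, with Benjamini-Hochberg adjustment over all of them. The trimmed mean was 250.0 on all 4 arrays. Duplicates of a pool were 2-fold or more apart for 21.1% (germ-free) and 29.9% (conventionalized) of probe sets, and conventionalized replicate 2 stood apart, with correlations of 0.754 to 0.779 to the other arrays across probe sets. The closest pair was germ-free replicate 2 and conventionalized replicate 1 (correlation 0.890, 16.6% of probe sets 2-fold or more apart). This pair was closer than either pair of duplicates, so across all probe sets the arrays did not pair by group. The fluidics station was 1 for the germ-free and 2 for the conventionalized arrays, so washing and colonization cannot be told apart. Of the Paneth cell markers, 9 of 18 listed were tested, and all 9 had differences above 0, with a median of 1.85. The summed signals of the 10 listed markers with a probe set were 66318.4 and 147787.3 in the germ-free pool against 282470.9 and 644558.7 in the conventionalized pool. On conventionalized replicate 2, Lyz1 and Defa31 alone read 249593.9 and 245508.7.

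Of the members, 3 enzymes that oxidize retinol or retinal had lower signals after colonization. On the log2(intensity + 32) scale Rdh7, Adh1 and Aldh1a1 were 5.81-fold, 4.58-fold and 2.96-fold lower in the conventionalized pool, and Dhrs3 and Lrat differed less in the same direction. Rbp2 and Rarb, both dim, pointed the other way, and Aldh1a2 and Crabp2 gave too little signal to be tested. Of the 7 member genes tested, 2 (Rdh7 and Adh1) were called lower and 0 higher, where 0.248% of all 12113 genes tested were called lower and 0.107% higher. The conventionalized arrays lay below both germ-free arrays for 4 of the 7 (16.1% of all genes) and above both for 2 (15.9% of all genes). Since this contrast was known when the genes were chosen, nothing is read from these shares. The median difference of the 7 was -0.78, beside 0.0002 over all genes tested. In captured tissue, fewer cells of a type and less RNA per cell cannot be told apart.

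**Figure D1:**
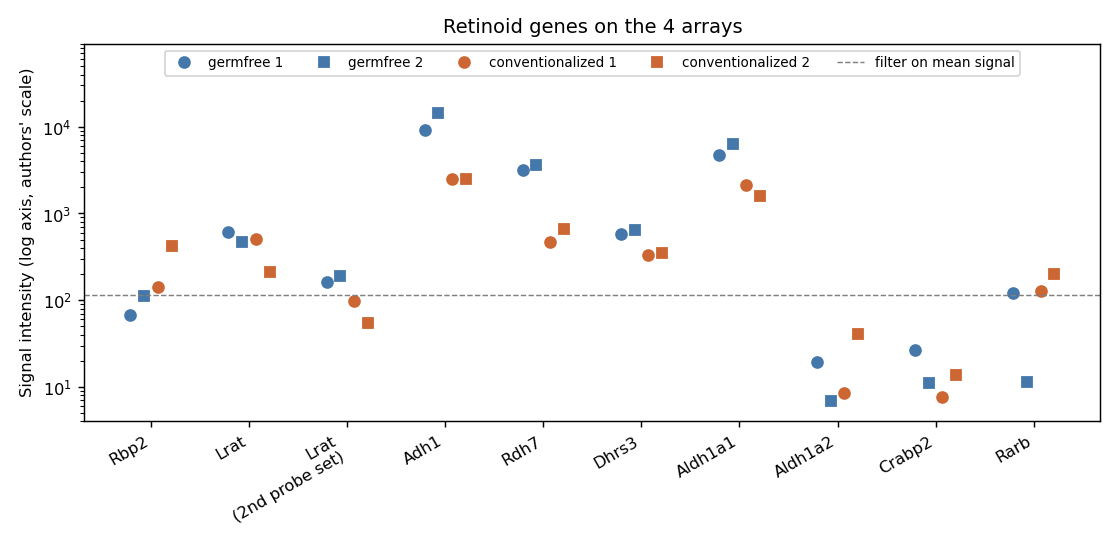
Signal intensity (log axis) of each member probe set on the 4 arrays; circles are replicate 1, squares replicate 2, blue germ-free, orange conventionalized, and the dashed line is the mean signal of 113.9 needed for testing. Adh1, Rdh7, Dhrs3 and Aldh1a1 lie lower on both conventionalized arrays, while Aldh1a2 and Crabp2 stay under 41 on all 4.

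Uptake and storage came first in the pathway. Rbp2 (probe set 1422846_at), the enterocyte carrier that hands retinol to its esterifying enzyme, read 68.3 and 112.9 on the germ-free and 143.4 and 425.8 on the conventionalized arrays. The groups did not overlap, but the conventionalized duplicates were further apart (1.38 on the log2 scale) than the group means (1.23 ± 0.76 SE, 2 arrays per group). Without conventionalized replicate 2 the difference was 0.54, and without conventionalized replicate 1 it was 1.93. Rbp2 was not called. Lrat (probe set 1444487_at), which esterifies retinol, read 618.9 and 470.3 in the germ-free pool against 507.3 and 208.5 in the conventionalized pool at its brighter probe set. The first conventionalized array lay between the germ-free ones, so the groups overlapped, and the difference of -0.67 ± 0.48 was not called. It came to -0.08 without conventionalized replicate 2 and to -1.25 without conventionalized replicate 1. The other Lrat probe set, 1421345_at, read 163.9 and 188.6 against 99.0 and 55.2, with no overlap and a difference of -0.96 ± 0.96 that was not called either.

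Oxidation of retinol to retinal showed the largest differences in the set. Rdh7 (probe set 1448723_at), a short-chain dehydrogenase that oxidizes retinol and also some steroids, read 3153 and 3592 in the germ-free pool against 463.7 and 657.5 in the conventionalized pool. Both conventionalized arrays were far under both germ-free arrays, and the 4 pairs of arrays differed by -2.87 to -2.21. The fitted difference was -2.54 ± 0.42, rank 9 from the lowest of 12113 genes. Over 13 alternatives the Rdh7 difference ran from -2.78 to -2.30. Among those that kept all 4 arrays, Rdh7 was not called only where the variance trend on mean signal was dropped. That setting called 0 of all 22491 probe sets (975 at an unadjusted limma p under 0.05). The members were chosen by this same contrast, so calls repeated on these arrays are no separate support. Adh1 (probe set 1416225_at), the class I alcohol dehydrogenase that acts on both ethanol and retinol, read 9215 and 14588 in the germ-free pool against 2512.5 and 2506 in the conventionalized pool. The conventionalized duplicates nearly coincided while the germ-free duplicates were 0.66 apart on the log2 scale, and the 4 pairs of arrays differed by -2.53 to -1.86. The difference of -2.19 ± 0.49 was rank 25 from the lowest. Adh1 kept its sign in all 13 alternatives, from -2.52 to -1.86. For both genes the 13 include the crossed replicate block, a pairing added after seeing the data. The Adh1 call did not hold in all of them. Its call was lost with median centring, without the variance trend, with the replicate block, and without germ-free replicate 2 (-1.86), conventionalized replicate 1 (-2.20) or conventionalized replicate 2 (-2.19).

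Both genes sit in clusters of related enzymes, which gives the nearest comparison within each family. On chromosome 10, the RefSeq gene table for GRCm38.p6 places 6 protein-coding genes from Rdh1 to Rdh7, and 5 of them were named by a probe set. Beside Rdh7, Rdh9 read 316.1 and 666.0 against 230.3 and 470.6 (-0.44 ± 0.49), and Rdh16f2 read 357.9 and 228.5 against 105.2 and 209.2 (-0.81 ± 0.62). Neither was called, and Rdh1 and Rdh16 lay under the signal filter on average. Of the 5, Rdh7 alone was called. On chromosome 3, Adh1 lies among 6 alcohol dehydrogenase genes from Adh7 to Adh5. Adh5, the formaldehyde-handling class III enzyme, read 3203 and 5027 against 4878 and 3706.5, with overlap and a difference of 0.08 ± 0.46. Adh4, another retinol-oxidizing dehydrogenase, read 351.8 and 272.0 against 197.3 and 187.2 (-0.61 ± 0.57, not called). Adh6a had higher signals after colonization (0.54 ± 0.67, not called), so within this cluster the differences ran both ways. Whether each difference in a cluster differed from its neighbour was not tested, and probes of such close relatives can bind each other's transcripts.

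The return step and the last oxidation followed. Dhrs3 (probe set 1448390_a_at), the reductase that turns retinal back into retinol and is induced by retinoic acid, read 575.8 and 646.1 in the germ-free pool against 332.0 and 352.8 in the conventionalized pool. Its duplicates were close, 0.16 and 0.08 apart on the log2 scale, and the groups did not overlap. The difference of -0.78 ± 0.47 was not called. Its SE, taken from probe sets of like signal, was larger than the gap of its own duplicates, and the difference stayed between -0.86 and -0.65 in 13 alternatives. Aldh1a1 (probe set 1416468_at), the retinal dehydrogenase of epithelial cells, read 4692 and 6386 against 2107 and 1583. Both conventionalized arrays lay below the lower germ-free array, and the difference was -1.57 ± 0.44, rank 159 from the lowest. It was not called in the main fit. It was called lower with quantile normalization and with the crossed replicate block, a pairing added after seeing the data. Aldh1a1 ranged from -1.79 to -1.35 over 13 alternatives. Its close relative and neighbour on chromosome 19, Aldh1a7, read 321.3 and 206.9 against 91.9 and 187.4 (-0.82 ± 0.66, not called), and signals of these relatives may share transcripts. Aldh1a2 (probe set 1422789_at), the retinal dehydrogenase of dendritic and stromal cells, read 19.5 and 6.9 against 8.4 and 40.6. No difference was detectable at this signal. Of the cells known for Aldh1a2, 9 dendritic cell and macrophage markers were measured, 5 were tested and 0 were called (median 0.51). Among them 1, Lyz2 (1.30), had an unadjusted limma p under 0.05. Itgax, Flt3, Cd209a and Batf3 lay under the signal filter on average, so this median says little about dendritic cells.

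Binding and response closed the chain. Crabp2 (probe set 1451191_at), which delivers retinoic acid to its receptors, read 26.3 and 11.2 against 7.6 and 13.6, below the pseudocount of 32 on every array, so no fold is given. Rarb (probe set 1454906_at), the receptor whose own gene answers to retinoic acid, read 121.0 and 11.4 in the germ-free pool against 127.5 and 201.6 in the conventionalized pool. The groups did not overlap, but the germ-free duplicates were 1.82 apart, more than the difference of 1.24 ± 1.19, and Rarb was not called. Without germ-free replicate 2, which held the value of 11.4, the difference was 0.34.

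**Figure D2:**
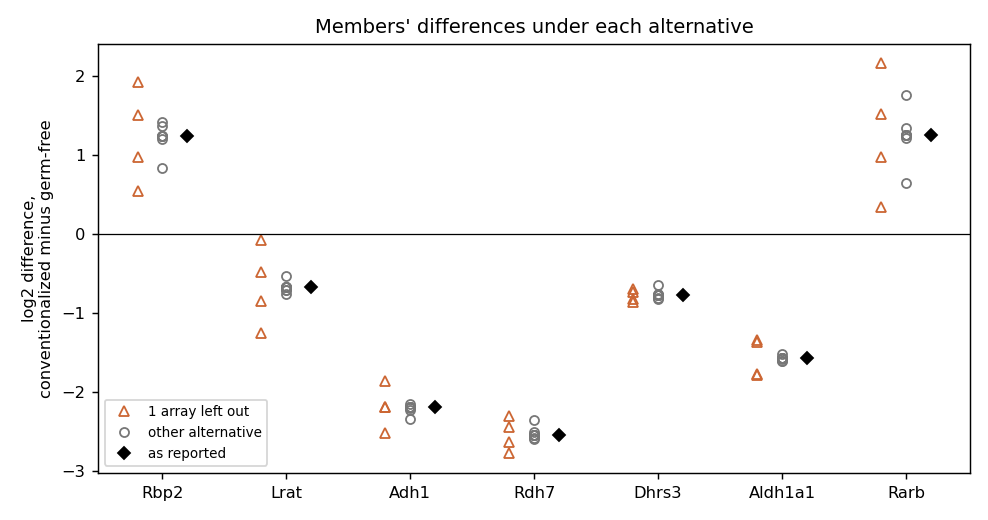
Log2 difference (conventionalized minus germ-free) of the 7 tested members as reported (diamonds), with 1 array left out (triangles) and under each other alternative (circles). Rdh7 stays between -2.78 and -2.30 and Adh1 between -2.52 and -1.86, while Rarb runs from 0.34 to 2.15 and Lrat reaches -0.08.

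Promoter sequence is shown for the 3 members with the lowest differences and for Rarb, the response gene. The RefSeq promoter table (GRCm38.p6) held windows for 8 of the 9 members, 12 in all, and none for Crabp2. The 250 bases before each annotated start were searched on both strands for direct repeats bound by retinoid receptors. The letters were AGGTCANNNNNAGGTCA (called DR5), AGGTCANNAGGTCA (DR2), AGGTCANAGGTCA (DR1), the response element known from Rarb itself, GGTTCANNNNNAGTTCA, and the single hexamer AGGTCA, which the repeats contain. Printed are the last 150 bases before the start, 5′ to 3′ on the gene's strand, with matches in capitals. Rdh7 and Aldh1a1 each had 2 windows, from different annotated starts, and only the first of each is printed. The second Aldh1a1 window lies at chr19:20601718-20601967.
Adh1, chr3:138277435-138277584, plus strand: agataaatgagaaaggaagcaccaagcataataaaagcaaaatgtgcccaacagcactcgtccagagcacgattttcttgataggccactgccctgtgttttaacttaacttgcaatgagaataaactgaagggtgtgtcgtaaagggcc
Rdh7, chr10:127889248-127889397, minus strand: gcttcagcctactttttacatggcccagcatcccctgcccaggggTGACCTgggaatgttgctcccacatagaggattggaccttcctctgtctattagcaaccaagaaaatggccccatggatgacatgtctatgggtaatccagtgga
Aldh1a1, chr19:20492433-20492582, plus strand: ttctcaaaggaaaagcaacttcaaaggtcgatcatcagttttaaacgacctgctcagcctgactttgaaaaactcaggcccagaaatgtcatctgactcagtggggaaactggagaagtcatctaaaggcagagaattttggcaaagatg
Rarb, chr14:16575477-16575626, minus strand: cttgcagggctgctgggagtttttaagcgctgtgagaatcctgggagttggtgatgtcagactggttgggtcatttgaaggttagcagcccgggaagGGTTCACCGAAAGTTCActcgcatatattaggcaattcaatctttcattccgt
The capitals in Rarb are the element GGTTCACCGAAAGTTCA, from 53 to 37 bases before the start. The start shown is an internal one of the gene as annotated. This pattern was found in 2 of 32851 promoter windows (0.00609%), the other being that of Gm52524. Its letters were taken from the Rarb element, so the match in Rarb is no independent find. The capitals in Rdh7 are TGACCT, the hexamer read on the other strand, from 105 to 100 bases before the start shown. The other Rdh7 window held no match. Rbp2 held the same hexamer, and 14% of all windows did. No member window held the DR5, DR2 or DR1 letters, which occurred in 0.00913%, 0.00913% and 0.0335% of windows. A match describes letters and is no sign of binding in these cells. No match says only that these letters are not in this window.

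Other genes of vitamin A handling, outside the members, gave no call. Of 58 listed, 50 had a probe set naming them alone and 34 were tested. limma called 0 of the 34 at an adjusted p under 0.05, 6 had an unadjusted p under 0.05 (2 without the variance trend, 0 if germ-free replicate 2 was left out, and 3 if replicate 1 was), and 24 had differences below 0. Over all 12113 genes tested, 719 had an unadjusted limma p under 0.05 and 50.0% had differences below 0. The median of the 34 was -0.37, beside 0.0002 over all genes tested, and it was -0.11 without conventionalized replicate 2. The conventionalized arrays lay below both germ-free arrays for 14 of the 34 (41.2%, against 16.1% of all genes) and above both for 4 (11.8%, against 15.9%).

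Upstream steps mostly had values below 0. Among 8 genes of luminal hydrolysis, uptake and carotenoid cleavage, 7 had differences below 0. Plb1, the brush-border phospholipase that also hydrolyses retinyl esters, read 1872 and 2666 against 567.5 and 1651 (-1.17 ± 0.42, limma adjusted p = 0.38). Its other tested probe sets gave -1.90 ± 1.22 and -0.35 ± 0.55. Pnliprp2, a pancreatic-type lipase, overlapped between groups at both its probe sets (-0.10 ± 0.46 and 0.27 ± 0.42). Isx, the homeobox repressor of vitamin A uptake that retinoic acid induces, overlapped as well, with 536.5 and 681.8 against 624.1 and 613.1 (0.03 ± 0.44). The gene of the carotene-cleaving enzyme repressed by it, Bco1, read 142.3 and 174.6 against 132.8 and 50.0 (-0.71 ± 0.96). Isx, Bco1, Cd36, Rbp4 and Ttr were named after their values were seen. Cd36, a fatty acid and carotenoid uptake receptor, had -1.26 ± 0.49 at its brightest probe set, while its other 2 tested probe sets gave -2.00 and 0.60.

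The 4 tested genes of binding proteins and carriers had a median difference of -0.30, and none was called. Fabp5, a fatty acid binding protein that can also carry retinoic acid, read 1633.3 and 1761.8 against 1573.8 and 948.6 (-0.46 ± 0.42), and its second probe set gave 0.16 ± 0.54. Rbp7, a cellular retinol-binding protein, overlapped between groups, with 543.4 and 324.8 against 460.7 and 468.1 (0.13 ± 0.47). Ttr, the plasma partner of Rbp4, overlapped at its brightest probe set (-0.15 ± 0.57), while its other tested probe set gave -1.24 ± 0.62. At the brightest probe sets, the lowest difference of this role was that of Rbp4, the retinol carrier of plasma, which read 535.6 and 527.7 against 241.5 and 192.3 (-1.19 ± 0.51, limma adjusted p = 0.76).

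All 3 tested esterifying and hydrolysing genes had differences below 0. Dgat1, which can esterify retinol as well as diacylglycerol, read 3050 and 6946 against 2240 and 2648 (-0.91 ± 0.45). Its second probe set overlapped between groups (-0.44 ± 0.58). The carboxylesterase gene Ces1d read 785.8 and 804.0 against 750.5 and 250.6 (-0.81 ± 0.45), and its other tested probe set gave -0.85 ± 0.51. Neither gene was called. Dhrs4, an oxidoreductase that acts on retinal, had the smallest p of the list, with 1977 and 3101 against 1160 and 804.7 (-1.33 ± 0.42, limma adjusted p = 0.19). Its second probe set gave 0.52 ± 0.67. The other tested retinol and retinal oxidoreductases spread over both sides, from -0.61 for Adh4 to 1.45 for Sdr16c5, with 7 of 11 in this role below 0. Rdh10, which makes the retinal for retinoic acid in the embryo, overlapped between groups (-0.20 ± 0.46) at its brightest probe set. Its second probe set read 479.6 and 624.3 against 467.6 and 348.5, without overlap (-0.41 ± 0.47), and neither was called. Aldh8a1 and Aldh1a7, the other tested retinal dehydrogenases, had -0.65 ± 0.80 and -0.82 ± 0.66.

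Of 3 receptors and 3 retinoic acid targets tested, 1 of each had a difference below 0. Cyp26a1 and Cyp26b1, the enzymes that degrade retinoic acid, lay under the signal filter. Cyp26a1 read 18.2 and 94.2 against 102.4 and 12.3. Cyp26b1 read 45.8 and 15.3 against 17.9 and 297.7. In both genes a duplicate pair spanned most of the range, so no difference was detectable. Of the receptors, Rxrb read 482.4 and 915.7 against 929.8 and 1180 (0.63 ± 0.43) and Rxra overlapped between groups (-0.18 ± 0.45). Tgm2, a transglutaminase induced by retinoic acid, was bright, with 8498 and 12404 against 19110 and 15675 (0.75 ± 0.63), and its 4 other tested probe sets gave 0.02 to 0.72. Gprc5a, a retinoic acid-inducible receptor, read 241.8 and 297.5 against 33.0 and 289.2 (-1.06 ± 0.69), the low value being that of 1 array. None of these was called.

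**Figure D3:**
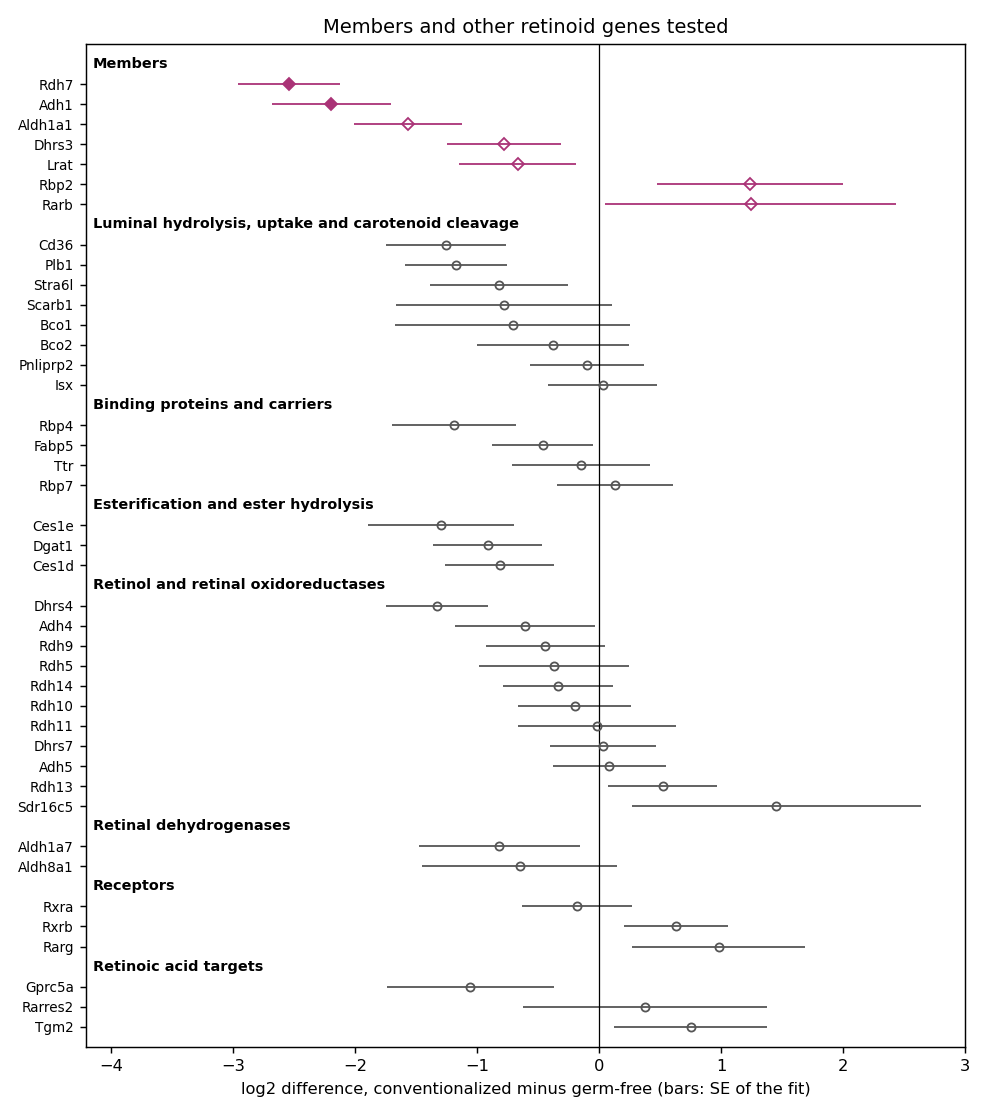
Log2 difference (conventionalized minus germ-free, bars: SE of the limma fit, 2 arrays per group) of the 7 tested members (purple) and 34 other retinoid genes (grey) by role; filled symbols are called. Rdh7 (-2.54) and Adh1 (-2.19) are the filled ones, and 24 of the 34 other genes lie below 0.

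Absorptive enterocytes are the known site of much of this pathway, so their markers were set beside the members. Of 22 listed, 21 were tested, 17 had differences below 0 and the median was -0.52 (-0.15 where germ-free replicate 2 was left out, -0.82 where conventionalized replicate 2 was). The apolipoprotein gene Apoc3 fell by 2.16 on the log2 scale (limma adjusted p = 0.0033, lower on both conventionalized arrays), and no other was called. The groups did not overlap for 6 lower markers (28.6% of the 21, against 16.1% of all genes) and 1 higher one (4.8%, against 15.9%). The brightest, Fabp2 (an enterocyte fatty acid binding protein) and Apoa4, had 1.47 ± 1.03 and 0.59 ± 0.81, so the summed signal of the list was 129310.5 and 231460.5 in the germ-free pool against 145340.3 and 300510.5 in the conventionalized pool. No marker was listed at 0, and the lowest signal was 94.5. The medians of the other marker lists were 0.53 (goblet), 0.93 (lymphoid), -0.02 (fibroblast), -0.24 (enteroendocrine), -0.32 (smooth muscle) and -0.61 (endothelial). In these lists and that of Paneth cells, Igha (2.44) and Mptx1 (2.74) were called higher and no other marker was.

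Members were also set against the median marker signal of a cell type on the same array, and the outcome depended on which cell type served as reference. The enterocyte markers came first. That median was 12.08 and 12.97 in the germ-free pool against 11.43 and 12.06 in the conventionalized pool in log2 units, a difference of -0.78. Relative to it, Rdh7 was still lower by 1.76 and Adh1 by 1.41 on the log2 scale, with no overlap between groups. For Aldh1a1 the remaining difference was -0.78, also without overlap. Dhrs3 came to 0.0037 and Lrat to 0.12, both with overlapping groups. Rbp2 and Rarb stood 2.02 and 2.03 higher relative to the enterocyte markers, without overlap. The enterocyte median was itself lower by 0.78, so genes already higher as deposited had to come out higher still against it. These 2.02 and 2.03 are therefore no separate support for their differences. The median of the 9 Paneth cell markers, the captured cell type, was 12.94 and 13.46 in the germ-free pool against 14.67 and 14.50 in the conventionalized pool, a difference of 1.38. Relative to this median, Rdh7 had a difference of -3.92, Adh1 of -3.58 and Aldh1a1 of -2.95, all without overlap. Dhrs3 (-2.16) and both Lrat probe sets (-2.05 and -2.34) were then lower without overlap as well, unlike against the enterocyte markers. Rbp2 and Rarb had -0.15 and -0.14, with overlapping groups. Rdh7, Adh1 and Aldh1a1 were lower without overlap against either reference. For the other 4 genes, whether the groups overlapped changed with the reference. The Paneth cell median was itself higher by 1.38, so members already lower as deposited had to come out lower still against it. That comparison is therefore no separate support for their differences. These ratios are a description over 4 arrays with no test.

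**Figure D4:**
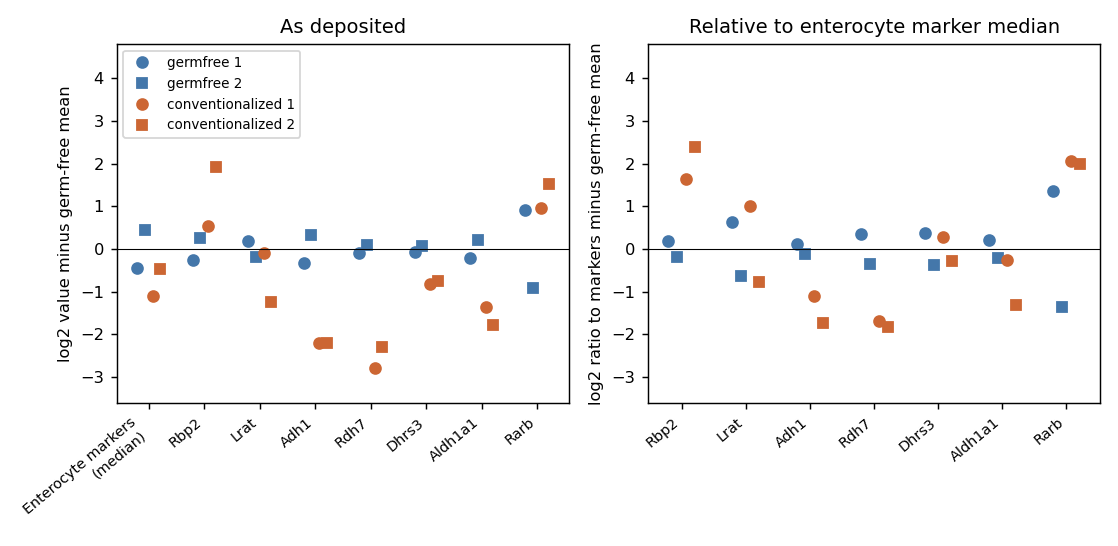
Left, log2(intensity + 32) of the enterocyte marker median and of each tested member on the 4 arrays, minus the germ-free mean; right, the same after subtracting the marker median of each array (circles replicate 1, squares replicate 2). Rdh7 (-1.76) and Adh1 (-1.41) stay below the germ-free arrays on the right, and Dhrs3 (0.0037) does not.

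Genes with a pattern most like that of Rdh7 and Rbp2 were sought among the 12113 genes, by the Euclidean distance between log2 values centred on their mean over the 4 arrays. Nearest to Rdh7 were Acy1 at 0.16, Oas1e at 0.32 and Lratd1 at 0.47, and these 3 were the only genes within 0.5. Acy1, an aminoacylase, read 473.2 and 555.2 against 56.9 and 74.4. Nearest to Rbp2 were Cfap61 (0.13), Krt78 (0.17) and Spdya (0.17), and 66 genes lay within 0.5. The 4 points of each profile share their pools and amplifications.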

How the data were processed

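RNA of laser-captured Paneth cells, pooled from 3 mice per group, was measured on 4 Affymetrix Mouse430_2 arrays, 2 amplified aliquots of each pool, per the labels. The deposited table gives 1 linear signal intensity per probe set and array. The trimmed mean (2% from each end) was 250.0 on all 4 arrays, and a scaling to it is inferred from these values only. Which software computed these intensities is not given in the sources used here. Other values read are scanner and fluidics parameters, deposited per array and used for batches only: all arrays shared a chip lot and a scanner and were hybridized and scanned on the same day.

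The number of arrays limits the precision. Control probe sets (64 of 45101) were left out. Intensities became log2(intensity + 32), which understates changes of dim probe sets. Probe sets with a mean above the median of 113.9 (22491) entered a linear model in limma 3.58.1 (R 4.3.3, functions lmFit and eBayes, variance trend on mean signal), which was checked on simulated data. The simulated noise followed mean signal alone, with no array standing apart. The check could therefore not probe the variance trend or an outlying array. The fit gave all probe sets of like signal 1 common SE. An exact permutation test of these arrays cannot go below p = 0.333. Gene names came from the 2016 platform annotation: 34958 probe sets name 1 gene, 932 several and 9211 none, and 34754 matched the RefSeq gene table of GRCm38.p6.

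The members, gene lists and naming rule were chosen with earlier results of these data known. Named were all members, the called genes of all lists, the 2 brightest of each role and of the enterocyte markers (the rule covered the 2 brightest of other marker lists, which are not printed), and 3 genes nearest in pattern to Rdh7 and Rbp2. Where the text names others, they were chosen after their values were seen. The alternatives tried were a pseudocount of 8 or 128, dropping the signal filter and keeping the brightest 25% of probe sets. Centring on the median, quantile normalization, no variance trend, the aliquot number as a replicate block and each array left out were tried as well. A crossed replicate block was added after seeing the data and is counted among the alternatives.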

Additional observations from a re-analysis of the deposited data

How the results depend on the processing

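No member changed sign under any alternative that could be run on it. The number of probe sets called, 75 as reported (27 higher and 48 lower), was 27 with median centring (6 and 21), 0 without the variance trend, 30 with the replicate block, and 41 to 213 with 1 array left out. The low count came without germ-free replicate 2 (34 higher and 7 lower, the balance turned) and the high one without conventionalized replicate 1 (32 and 181). Members called lower, 2 as reported, numbered 1 with median centring, 0 without the variance trend, 1 with the replicate block, and 1 to 2 with 1 array left out. Their median difference of -0.78 was -1.57 in the brightest 25% of probe sets, where 5 members remained to be tested, and ran from -1.25 to -0.82 with 1 array left out. Enterocyte markers called lower, 1 as reported, numbered 2 with quantile normalization, 0 with median centring, 0 without the variance trend, 0 with the replicate block, and 0 to 1 with 1 array left out. Deviations of same-numbered arrays from their group means correlated at -0.132 across probe sets, so a crossed pairing was added after seeing the data: it called 228 probe sets, 3 members and 2 enterocyte markers lower, and 2 of the 34 other retinoid genes. Those 34 had 0 calls under every other alternative. Where a count moved, the cause was not tested. Low signal limits Aldh1a2, Crabp2 and Rarb, for which differences could not be resolved at this signal.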
